A study of Mus musculus with 4 samples.

Results

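A set of 9 genes that act in sequence to make and load the peptides of MHC class I were followed on the 4 arrays of the study: the immunoproteasome catalytic subunits Psmb8, Psmb9 and Psmb10, the proteasome activator subunits Psme1 and Psme2, the peptide transporter subunits Tap1 and Tap2, the loading bridge Tapbp and the class I light chain B2m. The genes were chosen by name, from the array's annotation, out of 18194 annotated genes. The 9 genes had 15 probe sets, and 8 of them had a probe set that carries 1 gene symbol. The only probe set of Psme2 also carries Psme2b, so its values are given as those of the shared probe set and are not counted as a gene. All 8 genes were called Present, the array software's call for a signal above background, on all 4 arrays.

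As background, the proteasome cuts cytosolic proteins into peptides. Interferon gamma and other inflammatory signals make cells replace the constitutive catalytic subunits Psmb5, Psmb6 and Psmb7 by Psmb8, Psmb9 and Psmb10, which favours peptides that fit class I molecules, and the PA28 cap made of Psme1 and Psme2 opens the barrel. Tap1 and Tap2 together pump the peptides into the endoplasmic reticulum, where Tapbp (tapasin) holds the transporter next to empty class I molecules, and B2m (beta-2-microglobulin) is the chain that every classical class I molecule needs to reach the surface.

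Splenic monocytes of miR-146a-/- mice (KO) were compared with those of wild-type mice (WT), in each of the monocyte subsets separated by their surface Ly6C. Ly6Clow monocytes are the patrolling type and Ly6Chigh monocytes the inflammatory type. The 4 groups, with 1 array each, were KO Ly6Clow, WT Ly6Clow, KO Ly6Chigh and WT Ly6Chigh. The strain of the KO mice is given as B6(FVB)-Mir146tm1.1Bal/J and that of the WT mice, called control littermates, as C57BL/6. All groups shared the selection of CD11b-positive cells on beads and a sort on Ly6C, and no treatment, age or sex is given. RNA of several mice was pooled on each array, so no value has a replicate, and the spread between mice is not seen. The labels can be read as naming a different red cell lysis buffer for each genotype, and a difference of buffer cannot be told apart from one of genotype. In such bulk samples, fewer cells of a type and less RNA per cell cannot be told apart.

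miR-146a is a microRNA that lowers the output of messages carrying a match to its seed and is known as a brake on NF-kB signalling in myeloid cells. The mature RNA lacking in the KO mice is shown because it defines the genotype. It lies at chr11:43374435-43374456 on the minus strand of GRCm38.p6 (RefSeq), and its seed, bases 2 to 8, is in capitals.
mmu-miR-146a-5p: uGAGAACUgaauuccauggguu
The level of the microRNA itself was not analysed here, so it gives no check of the genotype labels.

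The promoters below are shown because the genes they drive are known targets of interferon and NF-kB signals, and because they differ in what they hold. Each runs 5′ to 3′ from 250 bases before to 50 bases after the annotated start, from RefSeq (GRCm38.p6), and 8 of the 9 genes had such an entry. The first is the Tap1 window at chr17:34187306-34187605, plus strand. Psmb9 starts on the other strand of the same region, with a window at chr17:34187281-34187580, and the capitals mark the 225 bases between the starts of the 2 genes. The windows of this pair share 275 bases.
Tap1 promoter: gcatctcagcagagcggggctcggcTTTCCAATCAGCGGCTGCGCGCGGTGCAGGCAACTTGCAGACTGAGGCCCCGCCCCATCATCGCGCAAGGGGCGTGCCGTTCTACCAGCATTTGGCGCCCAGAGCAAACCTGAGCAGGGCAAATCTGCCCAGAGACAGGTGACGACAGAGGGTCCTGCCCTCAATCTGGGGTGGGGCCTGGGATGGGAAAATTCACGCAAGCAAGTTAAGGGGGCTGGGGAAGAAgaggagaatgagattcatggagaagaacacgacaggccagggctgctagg
The Psmb8 window lies at chr17:34197945-34198244, plus strand, and its capitals mark a match to the interferon gamma activated site TTCNNNGAA.
Psmb8 promoter: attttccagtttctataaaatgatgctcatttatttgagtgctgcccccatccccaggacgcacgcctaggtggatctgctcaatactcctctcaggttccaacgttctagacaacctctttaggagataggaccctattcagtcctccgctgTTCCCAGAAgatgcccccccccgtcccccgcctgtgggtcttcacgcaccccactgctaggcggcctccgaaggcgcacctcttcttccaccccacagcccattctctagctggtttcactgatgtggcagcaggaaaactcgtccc
The Psme1 window lies at chr14:55578244-55578543, plus strand, and its capitals mark a match, on the other strand, to the core of the interferon-stimulated response element, GAAANNGAA.
Psme1 promoter: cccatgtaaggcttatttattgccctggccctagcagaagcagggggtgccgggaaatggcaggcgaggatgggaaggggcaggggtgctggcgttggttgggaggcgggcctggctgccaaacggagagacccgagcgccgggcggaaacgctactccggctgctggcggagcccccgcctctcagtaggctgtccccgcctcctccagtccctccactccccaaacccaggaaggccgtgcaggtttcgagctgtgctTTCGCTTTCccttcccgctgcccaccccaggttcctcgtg
The B2m window lies at chr2:122147437-122147736, plus strand, and its capitals mark a match to GAAANNGAA followed by a match, on the other strand, to the NF-kB consensus motif.
B2m promoter: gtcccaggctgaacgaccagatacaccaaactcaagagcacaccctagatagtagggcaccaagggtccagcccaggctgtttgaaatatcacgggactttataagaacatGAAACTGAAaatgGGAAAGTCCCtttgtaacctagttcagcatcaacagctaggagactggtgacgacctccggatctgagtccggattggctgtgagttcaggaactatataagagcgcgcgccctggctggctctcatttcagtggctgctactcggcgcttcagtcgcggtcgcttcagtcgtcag
With the annotated start as base 1 and the base before it as -1, these matches began at base -97 in Psmb8, at base 11 in Psme1, and at bases -139 and -126 in B2m, and none overlapped another. Searched on both strands, GAAANNGAA was found in 8.55% of the 32817 RefSeq promoter windows of this length, TTCNNNGAA in 8.29% and the NF-kB consensus motif in 8.46%. The windows of Psmb9, Psmb10, Psme2, Tap1 and Tapbp held none of the 3 motifs. A match describes letters in the window and is no evidence that a factor binds there.

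The sorted cells carried the markers of their label, and some markers of other cell types were Present as well. The 6 Ly6Clow markers (among them Nr4a1, Cx3cr1 and Treml4) summed to 26540.9 in KO Ly6Clow, 27558.0 in WT Ly6Clow, 8102.0 in KO Ly6Chigh and 9605.1 in WT Ly6Chigh cells. The 4 Ly6Chigh markers with a probe set (Ccr2, F13a1, Vcan and Fn1) summed to 1236.7, 1554.6, 18754.6 and 19373.0 in the same order. The T cell markers Cd3e, Cd3d, Cd3g, Cd4 and Cd8a and the NK cell markers Nkg7, Gzmb, Prf1 and Eomes were Present on no array, while 3 of the 7 NK cell markers and 1 of the 6 T cell markers with a probe set were Present on at least 1. NK cell markers summed to 61.0 in KO Ly6Clow, 90.3 in WT Ly6Clow, 78.1 in KO Ly6Chigh and 53.0 in WT Ly6Chigh cells, and T cell markers to 54.6, 72.3, 71.1 and 60.3 in that order. These sums cover 7 NK cell and 6 T cell markers, of which at most 2 and 1 were Present on a single array. The 95th percentile of signals called Absent was 24.6 to 29.9 per array, so the NK and T cell sums lie near background. Neutrophil markers summed to 1553.4 in KO Ly6Clow, 1924.1 in WT Ly6Clow, 3580.0 in KO Ly6Chigh and 4698.9 in WT Ly6Chigh cells, and B cell markers to 437.0, 744.0, 192.9 and 303.9 in that order. Of the listed markers, 5 of 7 for neutrophils and 3 of 6 for B cells were Present on at least 1 array, while Cxcr2, Pax5 and Ebf1 were Present on none. The neutrophil and B cell sums were lower in KO than in WT cells of the same subset. Single neutrophil markers did not all go this way. Of the 5 Present on at least 1 array of the pair, 2 were higher in KO cells in Ly6Clow and 1 in Ly6Chigh monocytes. The part of the neutrophil and B cell markers in the results below was not tested. The arrays called 46.8% to 48.6% of probe sets Present, and each had a trimmed mean signal of 150.0.

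The genes of class I peptide supply were expressed in all 4 groups and hardly differed between the groups. The log2 ratio of the brightest to the dimmest array ranged from 0.15 for Psmb9 to 0.47 for Psmb10, with a median of 0.30 over the 8 genes, against a median of 0.52 over the 8590 genes Present on all 4 arrays. Psmb9 had a smaller range than 95.2% of those genes and Tapbp a smaller range than 94.0%. The genes that moved most, Psmb10 and Tap1, still had a smaller range than 56.6% and 60.6% of them. The 8590 genes were not matched to the 8 in signal, and the part of signal level in this difference was not tested. Signals of different genes come from different probes and cannot be ranked against each other.

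**Figure D1:**
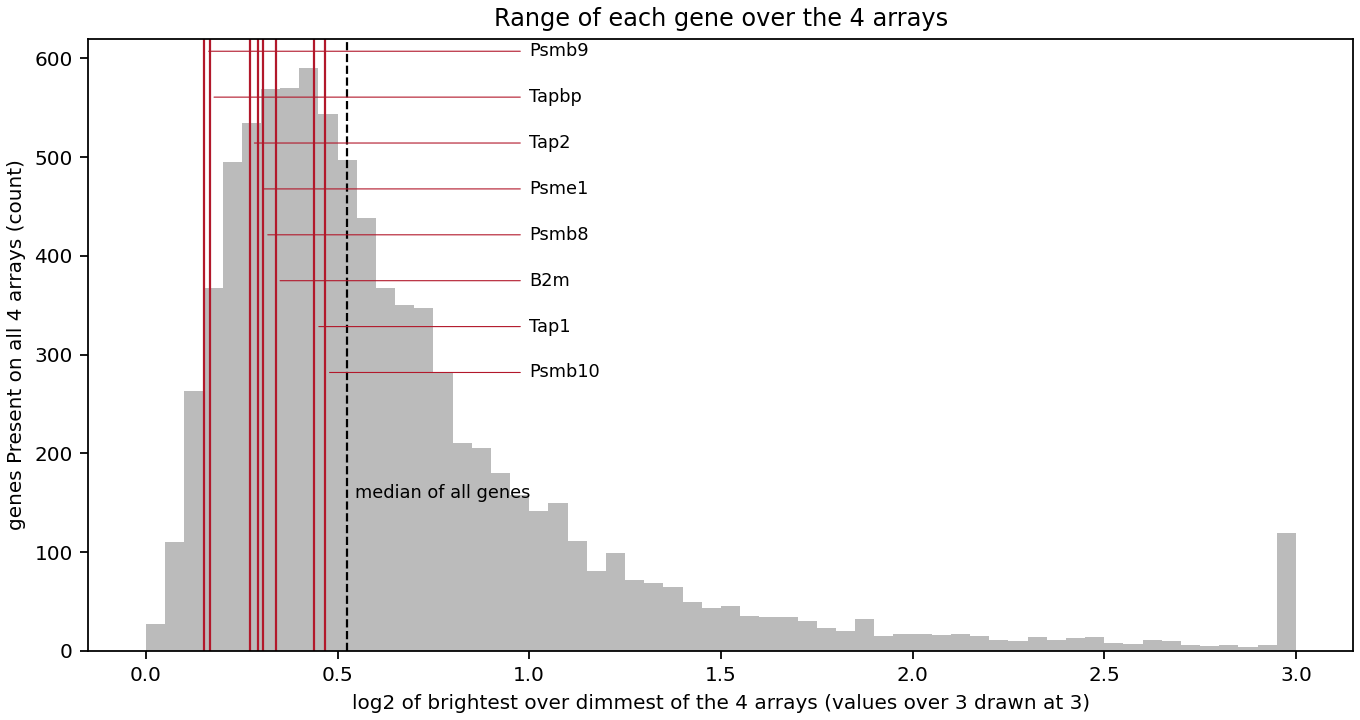
Histogram of the log2 ratio of the brightest to the dimmest of the 4 arrays, for the 8590 genes Present on all 4 arrays. Red lines mark the 8 genes of class I peptide supply, which lie between 0.15 (Psmb9) and 0.47 (Psmb10), left of the median of all genes at 0.52 (dashed line).

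The first comparison asked whether the loss of miR-146a went with a different level of these genes within a subset. A ratio of signals was called where it passed a fold limit and the brighter of the 2 arrays had the gene Present at a signal of 100 or more. None of the 8 genes differed 2-fold between KO and WT cells in Ly6Clow monocytes, where 0.196% of the 10191 measured genes did, or in Ly6Chigh monocytes, where 0.269% of 10401 did. At a lower limit, a log2 ratio of 0.32 in either direction, again 0 of 8 were called in either subset, against 7.26% of measured genes in Ly6Clow and 13.4% in Ly6Chigh monocytes. The median log2 ratio of the 8 genes was 0.02 in Ly6Clow and -0.15 in Ly6Chigh monocytes, against -0.03 and -0.01 over all measured genes.

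**Figure D2:**
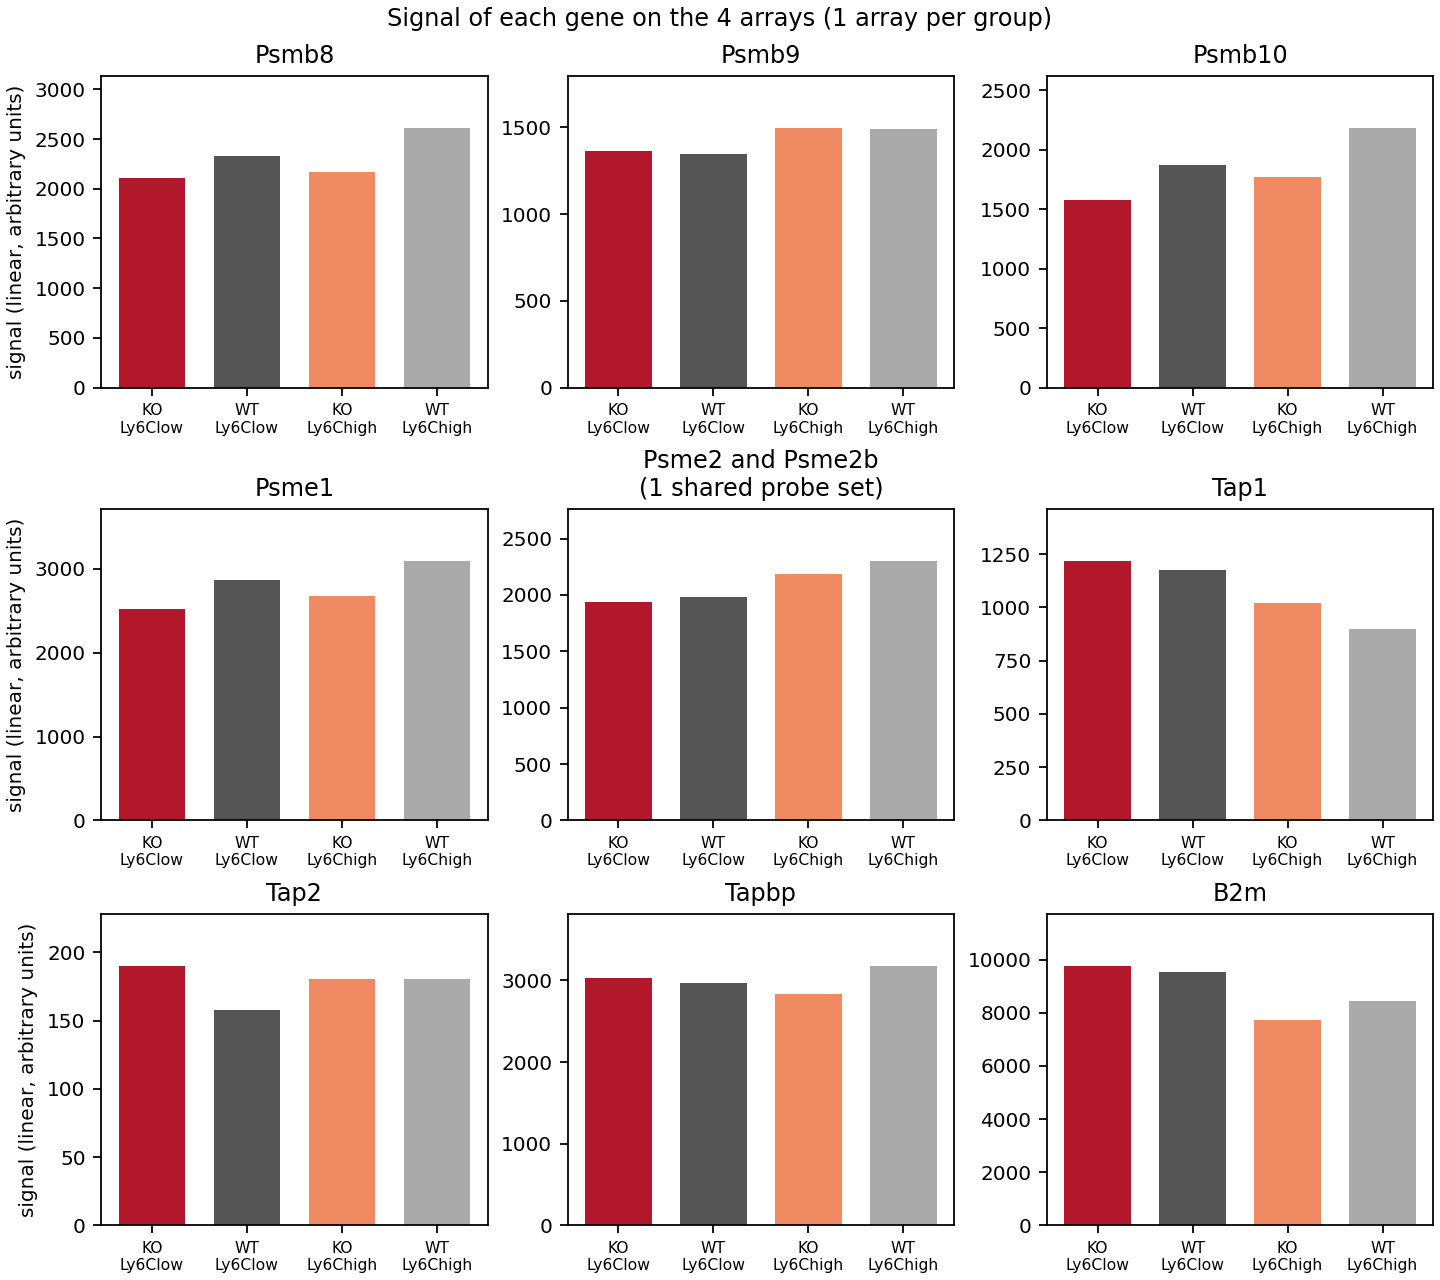
Signal (linear scale, arbitrary units) of each gene on the 4 arrays, with 1 bar per array and axes that start at 0. The bars of a gene are of similar height, the widest relative spread being that of Psmb10 (1575.9 to 2179.1). The panel of Psme2 shows the probe set shared with Psme2b.

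Of the catalytic subunits, Psmb10 and Psmb8 were lower in KO cells of both subsets and Psmb9 was level. Psmb10, which takes the place of Psmb7 and carries its trypsin-like activity, gave a signal of 1575.9 in KO Ly6Clow, 1873.8 in WT Ly6Clow, 1766.8 in KO Ly6Chigh and 2179.1 in WT Ly6Chigh cells. Both KO arrays lay below both WT arrays. The log2 ratio of KO to WT was -0.25 in Ly6Clow and -0.30 in Ly6Chigh monocytes, just inside the limit of 0.32. Psmb8, the chymotrypsin-like subunit that replaces Psmb5, gave 2109.5 in KO Ly6Clow, 2331.3 in WT Ly6Clow, 2164.9 in KO Ly6Chigh and 2608.8 in WT Ly6Chigh cells. Here too both KO arrays were below both WT arrays, with log2 ratios of -0.14 in Ly6Clow and -0.27 in Ly6Chigh monocytes. A dimmer Psmb8 probe set gave -0.04 and 0.09, so the direction in Ly6Chigh monocytes was not shared by both probe sets. Psmb9, which replaces Psmb6, gave 1366.8 in KO and 1345.5 in WT Ly6Clow cells and 1495.3 in KO and 1489.1 in WT Ly6Chigh cells, log2 ratios of 0.02 and 0.01.

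The PA28 cap split in the same manner. Psme1, its alpha subunit, gave 2525.9 in KO Ly6Clow, 2871.7 in WT Ly6Clow, 2672.9 in KO Ly6Chigh and 3095.7 in WT Ly6Chigh cells. The KO arrays were the 2 dimmest, with log2 ratios of -0.19 in Ly6Clow and -0.21 in Ly6Chigh monocytes. The probe set shared by Psme2, the beta subunit, and Psme2b gave 1938.5 in KO and 1983.2 in WT Ly6Clow cells and 2187.0 in KO and 2301.0 in WT Ly6Chigh cells, log2 ratios of -0.03 and -0.07.

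The transporter and the loading bridge gave ratios of either sign. Tap1 gave 1217.9 in KO Ly6Clow, 1177.7 in WT Ly6Clow, 1020.6 in KO Ly6Chigh and 898.0 in WT Ly6Chigh cells, with log2 ratios of KO to WT of 0.05 and 0.18. Tap2, its partner, gave 190.0 in KO and 157.4 in WT Ly6Clow cells, a log2 ratio of 0.27, and 180.2 in KO and 180.7 in WT Ly6Chigh cells, a log2 ratio of 0.00. Its highest and lowest signals were those of the 2 Ly6Clow arrays. Tapbp gave 3025.0 in KO and 2968.3 in WT Ly6Clow cells and 2832.3 in KO and 3178.2 in WT Ly6Chigh cells, log2 ratios of 0.03 and -0.17. Its second probe set, with signals of 192.6 and 143.3 in Ly6Clow and 192.2 and 168.8 in Ly6Chigh cells (KO and WT), was higher in the KO cells of both subsets, with log2 ratios of 0.43 and 0.19, so the probe sets of Tapbp disagreed on the direction in Ly6Chigh monocytes.

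B2m gave 9764.6 in KO and 9533.5 in WT Ly6Clow cells, and 7722.5 in KO and 8428.8 in WT Ly6Chigh cells. The log2 ratios of KO to WT were 0.03 and -0.13, and those of its second probe set -0.04 and -0.20. With quantile normalization of the arrays the ratio in Ly6Chigh monocytes turned to 0.09.

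**Figure D3:**
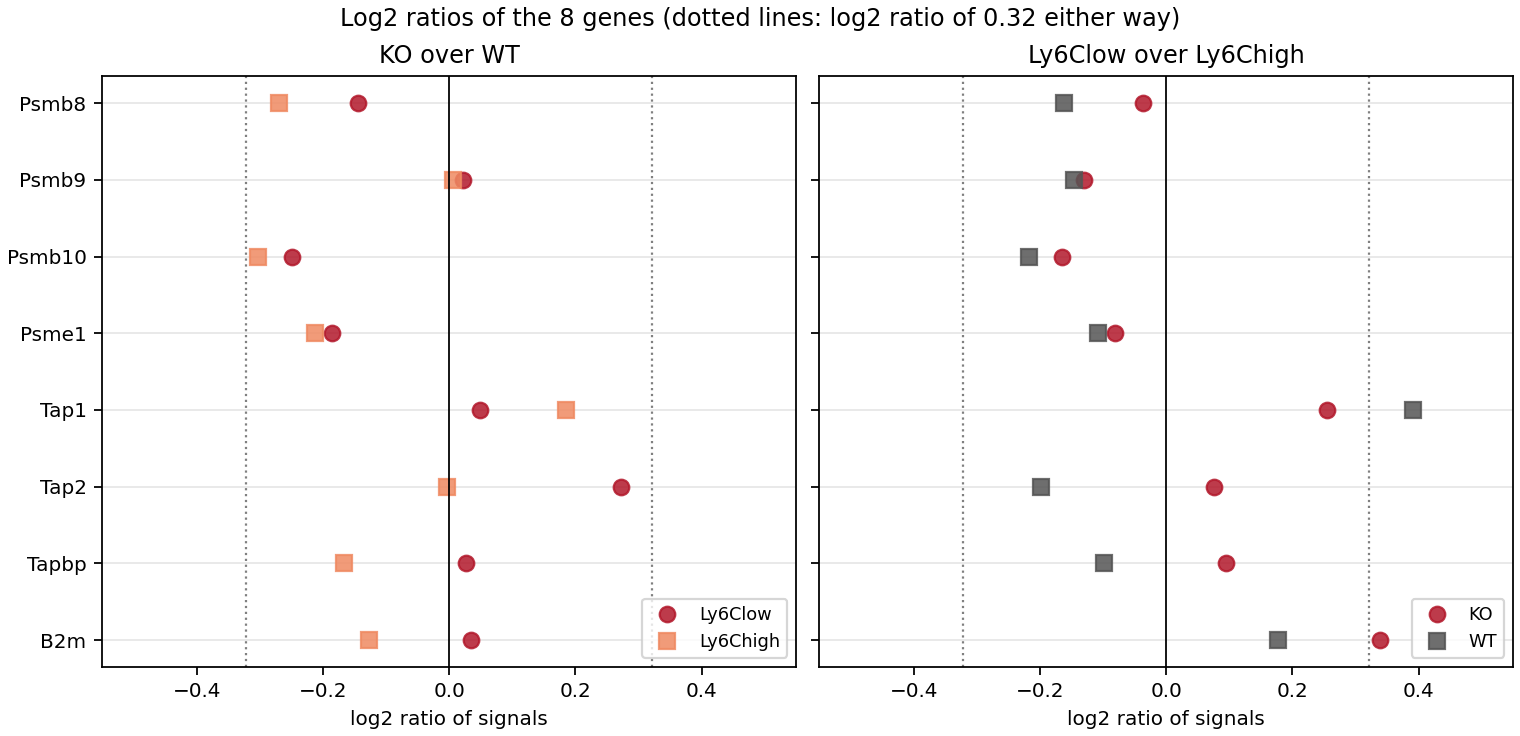
Log2 ratio of signals for the 8 genes, KO over WT on the left (circles Ly6Clow, squares Ly6Chigh) and Ly6Clow over Ly6Chigh on the right (circles KO, squares WT), 1 pair of arrays per point. All points on the left lie within the dotted lines at 0.32. On the right, Tap1 in WT (0.39) and B2m in KO (0.34) lie beyond them.

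Psmb8, Psmb10 and Psme1 were below 0 in both subsets, 3 of the 8 genes, where 34.3% of the genes Present on all 4 arrays were. Psmb9 and Tap1 were above 0 in both, 2 of the 8, where 25.2% of those genes were, though median centring put Psmb9 at -0.03 in Ly6Chigh monocytes and a mean over all its probe sets put Tap1 at -0.42 and -0.05. The array-wide level matters for such small ratios: the 1569 genes with a mean signal of at least 1000 had a median log2 ratio of KO to WT of -0.06 in Ly6Clow and -0.10 in Ly6Chigh monocytes, and the central 95% of them spanned -0.30 to 0.26 and -0.42 to 0.42. All 8 genes lay within those spans except Tap2 in Ly6Clow monocytes, at 0.27, a gene whose own mean signal is under 1000.

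The additive limma model, which takes the subsets as repeats of the genotype contrast and leaves 1 residual degree of freedom, gave no call for genotype. The largest coefficient among the 8 genes was that of Psmb10, -0.28 ± 0.117 (SE, adjusted p = 0.742 by limma with Benjamini-Hochberg adjustment over 11098 genes). Psmb8 followed at -0.21 ± 0.122 and Psme1 at -0.20 ± 0.116 (limma adjusted p = 0.746 for each), and the coefficients of the other 5 lay between -0.07 and 0.13. Across all genes 0 passed (0.0%), and 699 had an unadjusted p under 0.05 (6.3%), among them 0 of the 8. A limma fit with an intensity trend called 287 genes, none of the 8.

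Whether the immune subunits moved relative to the subunits they replace was read within each array, pair by pair. The 3 constitutive subunits themselves were lower in KO cells of both subsets, except that centring on bright genes put Psmb7 above 0 in Ly6Chigh monocytes. Psmb6 gave 843.1 in KO and 937.9 in WT Ly6Clow cells and 927.5 in KO and 1191.4 in WT Ly6Chigh cells, the second a log2 ratio of -0.36 that passed the limit of 0.32. Psmb5 gave 1144.8 and 1211.5 in Ly6Clow and 1147.0 and 1430.4 in Ly6Chigh cells, KO before WT, log2 ratios of -0.08 and -0.32. Psmb7 gave 120.8 and 143.3 in Ly6Clow and 161.9 and 163.2 in Ly6Chigh cells, log2 ratios of -0.25 and -0.01. The KO to WT change of the pair ratio was accordingly small for Psmb8 over Psmb5, at -0.06 in Ly6Clow and 0.05 in Ly6Chigh monocytes. It was above 0 for Psmb9 over Psmb6, at 0.18 and 0.37, and at or below 0 for Psmb10 over Psmb7, at -0.00 and -0.29. The mean over the 3 pairs was 0.04 in each subset. The 3 pairs thus went 3 ways, and no common shift between immune and constitutive subunits was seen.

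Of the 11 other subunits of the 20S barrel, 10 were below 0 in Ly6Clow monocytes (median log2 ratio -0.12) and 11 in Ly6Chigh monocytes (median -0.22), with 0 past the limit of 0.32 in either. Of all measured genes, 54.6% were below 0 in Ly6Clow and 51.7% in Ly6Chigh monocytes. The lowest was the beta subunit Psmb3, which gave 1315.9 in KO and 1601.9 in WT Ly6Clow cells and 1456.4 in KO and 1810.6 in WT Ly6Chigh cells, log2 ratios of -0.28 and -0.31. Of the 21 measured subunits of the 19S cap, which unfolds ubiquitin-tagged proteins, 15 were below 0 in Ly6Clow and 16 in Ly6Chigh monocytes, with medians of -0.08 and -0.18. Psmd13 (258.9 in KO and 350.1 in WT, log2 ratio -0.44) and Psmd7 (270.2 and 345.2, -0.35) were called lower in Ly6Chigh monocytes, Psmd2 (955.1 and 754.3, 0.34) was called higher, and in Ly6Clow monocytes Psmd3 (226.1 and 284.9, -0.33) was called lower. All 4 are subunits of the 19S cap, and the counts of 1 and 3 of 21 stand beside 7.26% and 13.4% of all genes called in Ly6Clow and Ly6Chigh monocytes. The 8 other activators, inhibitors and assembly factors had no call, and the proteasome maturation factor Pomp was the lowest of them, at -0.15 in Ly6Clow and -0.23 in Ly6Chigh monocytes. The 1569 bright genes above were themselves below 0, so that centring on bright genes brought the medians of the 20S subunits to -0.07 in Ly6Clow and -0.16 in Ly6Chigh monocytes, and those of the 19S subunits to -0.04 and -0.12. No scaling tried turned the sign of these medians. The counts rested on the brightest probe sets. With a mean over all probe sets, 8 of the 11 20S and 11 of the 21 19S subunits were below 0 in Ly6Chigh monocytes. In Ly6Clow monocytes 10 and 11 were, with a 19S median of -0.02.

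Downstream, neither measured classical class I heavy chain passed the limit of 0.32 between KO and WT cells of either subset. The near-identical sequences of the class I family make a probe set's assignment to 1 of its genes uncertain. H2-K1, a classical heavy chain, gave 7788.3 in KO and 7920.1 in WT Ly6Clow cells and 5470.5 in KO and 5699.7 in WT Ly6Chigh cells, log2 ratios of -0.02 and -0.06. H2-D1, the other measured classical chain, gave 7413.1 and 7662.3 in Ly6Clow and 5188.8 and 5567.5 in Ly6Chigh cells, KO before WT, log2 ratios of -0.05 and -0.10. With quantile normalization all 4 of these ratios turned above 0. Of the 7 measured heavy chains and relatives, 1 was called in Ly6Clow monocytes, the lipid-presenting Cd1d1, against 7.26% of all measured genes. It gave 192.6 in KO and 143.8 in WT Ly6Clow cells, a log2 ratio of 0.42. Of the 10 loading partners and peptidases, Pdia3 (ERp57, a partner of tapasin) gave 1581.5 in KO and 2004.5 in WT Ly6Chigh cells, a log2 ratio of -0.34, and Blmh, a cytosolic peptidase, 353.8 and 458.5, a log2 ratio of -0.37. Both were called lower, and in Ly6Clow monocytes the trimming peptidase Erap1 was called lower, with 229.8 in KO and 289.3 in WT cells, a log2 ratio of -0.33. These 2 of 10 in Ly6Chigh and 1 of 10 in Ly6Clow monocytes stand beside 13.4% and 7.26% of all measured genes called in either direction.

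Of the 21 measured regulators, Nlrc5, the transactivator of class I genes, gave 656.7 in KO and 639.2 in WT Ly6Clow cells, a log2 ratio of 0.04, and 841.9 in KO and 582.0 in WT Ly6Chigh cells, a log2 ratio of 0.53. It was called higher in Ly6Chigh monocytes with Ciita, Socs3 and Stat2 (log2 ratios of 0.99, 0.72 and 0.43), while Rfxank was called lower (-0.45), against 13.4% of all genes called in either direction there. Ciita, the class II transactivator, had low signals of 165.7 in KO and 83.5 in WT Ly6Chigh cells. Irf1, an interferon-induced activator of Psmb9 and Tap1, gave 1390.2 and 1395.5 in Ly6Clow and 808.7 and 988.7 in Ly6Chigh cells, KO before WT, log2 ratios of -0.01 and -0.29. Of the 16 interferon gamma response genes measured in Ly6Chigh monocytes, 5 were called higher in KO cells (Gbp7, Irgm1, Igtp, Cxcl10 and Fcgr1) and Cd40 lower, with a median of 0.33, again beside 13.4% of all genes. Gbp7, an interferon-induced GTPase, gave 1160.0 in KO and 768.3 in WT Ly6Chigh cells, a log2 ratio of 0.59. In Ly6Clow monocytes 1 of 13 was called, against 7.26% of all genes, the checkpoint ligand Cd274, with 1670.7 in KO and 1137.2 in WT cells, a log2 ratio of 0.55. Psmb8, Psmb9 and Psmb10 were not among the genes called higher on the same arrays. No gene of these lists passed the limma test for genotype, the lowest adjusted p being 0.742.

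The second comparison asked how the genes differ between the monocyte subsets. At 2-fold, 0 of the 8 genes were called in KO cells, against 8.78% of 10409 measured genes, and 0 in WT cells, against 8.65% of 10535. At a log2 ratio of 0.32, 1 of 8 was called in each genotype, against 35.6% of measured genes in KO and 36.5% in WT cells. The called gene was B2m in KO cells and Tap1 in WT cells, each higher in Ly6Clow monocytes, a direction called for 16.8% of measured genes in KO and 17.5% in WT cells. The median log2 ratio of Ly6Clow to Ly6Chigh over the 8 genes was 0.02 in KO and -0.13 in WT cells, against -0.01 and 0.01 over all measured genes.

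B2m, with the signals given above, had log2 ratios of Ly6Clow to Ly6Chigh of 0.34 in KO and 0.18 in WT cells, and its second probe set 0.40 and 0.24. Both Ly6Clow arrays lay above both Ly6Chigh arrays on each probe set. Quantile normalization, which forces equal distributions on arrays whose highest signals were 12277.4, 12825.3, 8829.0 and 9879.0 (KO Ly6Clow, WT Ly6Clow, KO Ly6Chigh and WT Ly6Chigh), brought the first probe set to 0.04 in KO and 0.01 in WT cells. Tap1 had log2 ratios of 0.25 in KO and 0.39 in WT cells, and its Ly6Clow arrays lay above both Ly6Chigh arrays. The other 3 Tap1 probe sets had signals of 1.7 to 14.0 and were mostly called Absent, and a mean over all 4 gave -0.46 in KO and -0.090 in WT cells. In the authors' deposited table the change calls for Tap1 between the subsets were no change, with Ly6Chigh over Ly6Clow folds of 1.07 in KO and 1.15 in WT cells, which is the opposite direction to the ratio of the deposited signals.

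The 3 catalytic subunits were below 0 in both genotypes, and so was Psme1, except that median centring of the arrays put Psmb8 at 0.01 in KO cells. The log2 ratios of Ly6Clow to Ly6Chigh were -0.04 in KO and -0.16 in WT cells for Psmb8, -0.13 and -0.15 for Psmb9, -0.16 and -0.22 for Psmb10 and -0.08 and -0.11 for Psme1. These 4 of 8 genes compare with 39.8% of the genes Present on all 4 arrays that were below 0 in both genotypes, and the 2 above 0 in both, Tap1 and B2m, with 40.6%. The shared Psme2 and Psme2b probe set gave -0.17 in KO and -0.21 in WT cells. Tap2 and Tapbp changed sign between the genotypes, with 0.08 in KO and -0.20 in WT cells for Tap2 and 0.09 and -0.10 for Tapbp. Psmb9 and Tap1, whose starts lie 225 bases apart on opposite strands, had signal ratios of opposite sign between the subsets on their brightest probe sets. The authors' deposited folds did not show this. On the same probe sets both genes had Ly6Chigh over Ly6Clow folds of 1.07 in KO and 1.15 in WT cells, called no change.

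The additive limma model called none of the 8 genes between the subsets, where it called 786 of 11098 genes (7.08%) and 3883 had an unadjusted p under 0.05 (35.0%). Tap1 came nearest, at 0.32 ± 0.123 (SE, limma adjusted p = 0.189), followed by B2m at 0.26 ± 0.125 (limma adjusted p = 0.254) and Psmb10 at -0.19 ± 0.117 (limma adjusted p = 0.333). The counts moved with the settings: with an intensity trend 2 of the 8 were called, Tap1 and B2m, where 41.4% of all genes were, and with an offset of 32 added to each signal 1 was called, Tap1, where 38.9% were.

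Between the subsets, 35.6% of all genes in KO and 36.5% in WT cells were called at the limit of 0.32 in either direction. Of the 11 other 20S subunits, 4 were called lower at the limit of 0.32 in Ly6Clow cells of each genotype, the alpha subunits Psma4, Psma5 and Psma7 and the beta subunit Psmb1, and 0 were called higher. Psma7 gave 1707.6 in KO Ly6Clow, 1868.3 in WT Ly6Clow, 2978.4 in KO Ly6Chigh and 3271.3 in WT Ly6Chigh cells, log2 ratios of Ly6Clow to Ly6Chigh of -0.80 in KO and -0.81 in WT cells. The list's median was -0.15 in KO and -0.25 in WT cells. In the 19S cap, Psmd13 gave 145.7 and 178.9 in Ly6Clow and 258.9 and 350.1 in Ly6Chigh cells, KO before WT, log2 ratios of -0.83 in KO and -0.97 in WT cells. Psmc1, Psmd6 and Psmd8 were also called lower in both genotypes, Sem1 in WT cells, and Psmc4 was called higher in WT cells, which makes 4 of 21 subunits called in KO and 6 of 21 in WT cells. The assembly factors Pomp, Psmg1 and Psmg4 and the activator Psme4 were called lower in both genotypes, with Psmg4 at 177.4 in KO and 187.8 in WT Ly6Clow cells, against 344.0 in KO and 375.9 in WT Ly6Chigh cells. In KO cells the activator Psme3 was called higher (0.36) and the inhibitor Psmf1 lower (-0.36). Among the constitutive catalytic subunits Psmb7 was called lower in KO cells (-0.42) and Psmb6 in WT cells (-0.35). No gene of these lists passed the limma test between subsets, the lowest adjusted p being 0.0525, for Psmg4.

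**Figure D4:**
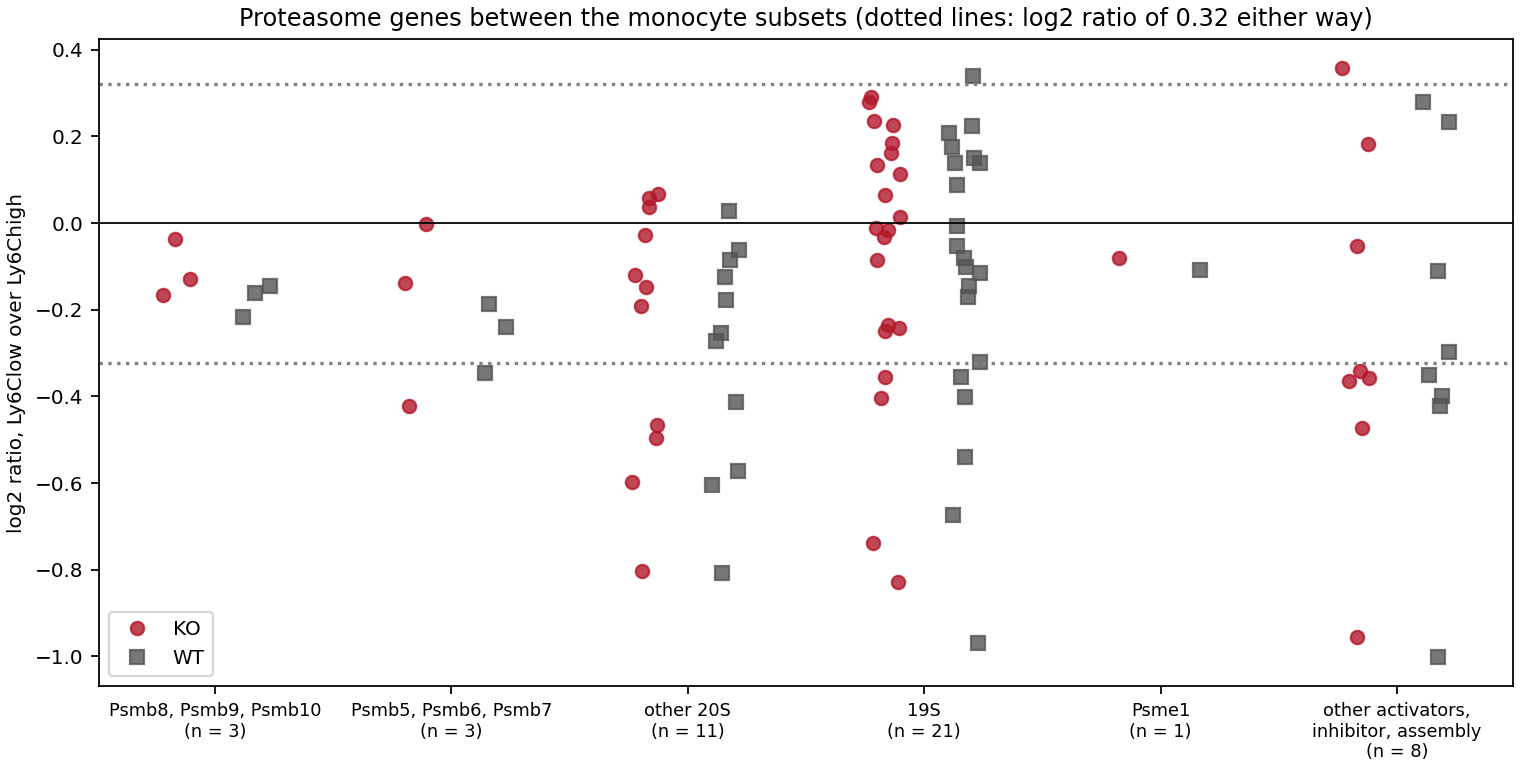
Log2 ratio of Ly6Clow to Ly6Chigh signals for proteasome genes by class (circles KO, squares WT, 1 point per gene and genotype, dotted lines at a log2 ratio of 0.32 either way). The 3 immune catalytic subunits lie between -0.22 and -0.04, inside the lines, as do most 20S and 19S subunits. The lowest 20S and 19S values are -0.81 (Psma7) and -0.97 (Psmd13). Of 11 20S subunits, 4 were called lower in each genotype. Of 21 19S subunits, 4 were called lower in KO cells, and 5 lower and 1 higher in WT cells. Of all genes, 35.6% in KO and 36.5% in WT cells were called in either direction.

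Relative to the subunits they replace, the change of the immune subunits between the subsets differed by pair and by genotype. The log2 change of the pair ratio, Ly6Clow over Ly6Chigh, was -0.03 in KO and 0.08 in WT cells for Psmb8 over Psmb5, 0.01 and 0.20 for Psmb9 over Psmb6, and 0.26 and -0.03 for Psmb10 over Psmb7. The mean over the 3 pairs was 0.08 in each genotype. The marker sums of neutrophils and conventional dendritic cells were lower in Ly6Clow than in Ly6Chigh cells. The dendritic cell sums were 107.7 and 77.2 in Ly6Clow and 454.0 and 408.3 in Ly6Chigh cells (KO and WT). Of the 5 measured neutrophil markers, 1 was higher in Ly6Clow cells in each genotype. The B cell sums went the other way, with 437.0 and 744.0 in Ly6Clow and 192.9 and 303.9 in Ly6Chigh cells (KO and WT). The part of all these markers in the ratios was not tested.

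H2-K1, with the signals given above, had log2 ratios of Ly6Clow to Ly6Chigh of 0.51 in KO and 0.47 in WT cells, and H2-D1 of 0.51 and 0.46. The limit of 0.32 called both genes higher in both genotypes, together with Fcgrt, the neonatal Fc receptor that also pairs with B2m, against 16.8% of all genes called higher in KO and 17.5% in WT cells. H2-K1 and H2-D1 did not pass the limma test between subsets (adjusted p = 0.105 and 0.107). The size of the subset ratios depended on the scaling. With quantile normalization the median of the 7 heavy chains and relatives fell from 0.49 to 0.28 in KO and from 0.46 to 0.36 in WT cells. Fcgrt gave 859.9 in KO and 731.9 in WT Ly6Clow cells, against 288.5 in KO and 305.8 in WT Ly6Chigh cells, and rose by 1.42 on the log2 scale (limma adjusted p = 0.0463). H2-T24, a non-classical relative, fell by 1.27 (limma adjusted p = 0.0417), with signals of 76.7 and 74.2 in Ly6Clow and 189.0 and 175.8 in Ly6Chigh cells. These were the 2 of 7 heavy chains and relatives that passed the test, where 7.08% of all genes did. Among the loading partners and peptidases, Pdia3, Lap3 and Blmh were called lower in both genotypes and Tpp2, a cytosolic peptidase, higher, and 0 of 10 passed the limma test.

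Of the 16 interferon gamma response genes tested by limma, 6 fell in Ly6Clow cells (Gbp3, Gbp7, Irgm1, Iigp1, Cxcl10 and Fcgr1) and 1 rose (Cd274), while 9 did not pass. Of all genes tested, 7.08% passed in either direction. Gbp3, a guanylate-binding protein, gave 255.5 in KO and 267.9 in WT Ly6Clow cells, against 1384.6 in KO and 1286.9 in WT Ly6Chigh cells (limma coefficient -2.35, adjusted p = 0.031). Cd274 (PD-L1) gave 1670.7 in KO and 1137.2 in WT Ly6Clow cells, against 97.9 in KO and 81.0 in WT Ly6Chigh cells (limma coefficient 3.95, adjusted p = 0.0308). The guanylate-binding proteins are a family of close copies, so that a probe set's assignment to 1 of them is uncertain. Of the 21 regulators, 2 passed, Ciita and Stat2, which fell (limma adjusted p = 0.0325 and 0.0448), again beside 7.08% of all genes. Irf1 was called higher in Ly6Clow cells of both genotypes, with log2 ratios of 0.78 in KO and 0.50 in WT cells, and did not pass the limma test (adjusted p = 0.0981). Nlrc5 had ratios of -0.36 in KO and 0.14 in WT cells. On the same arrays the 8 genes ranged from -0.22 to 0.39.

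**Figure D5:**
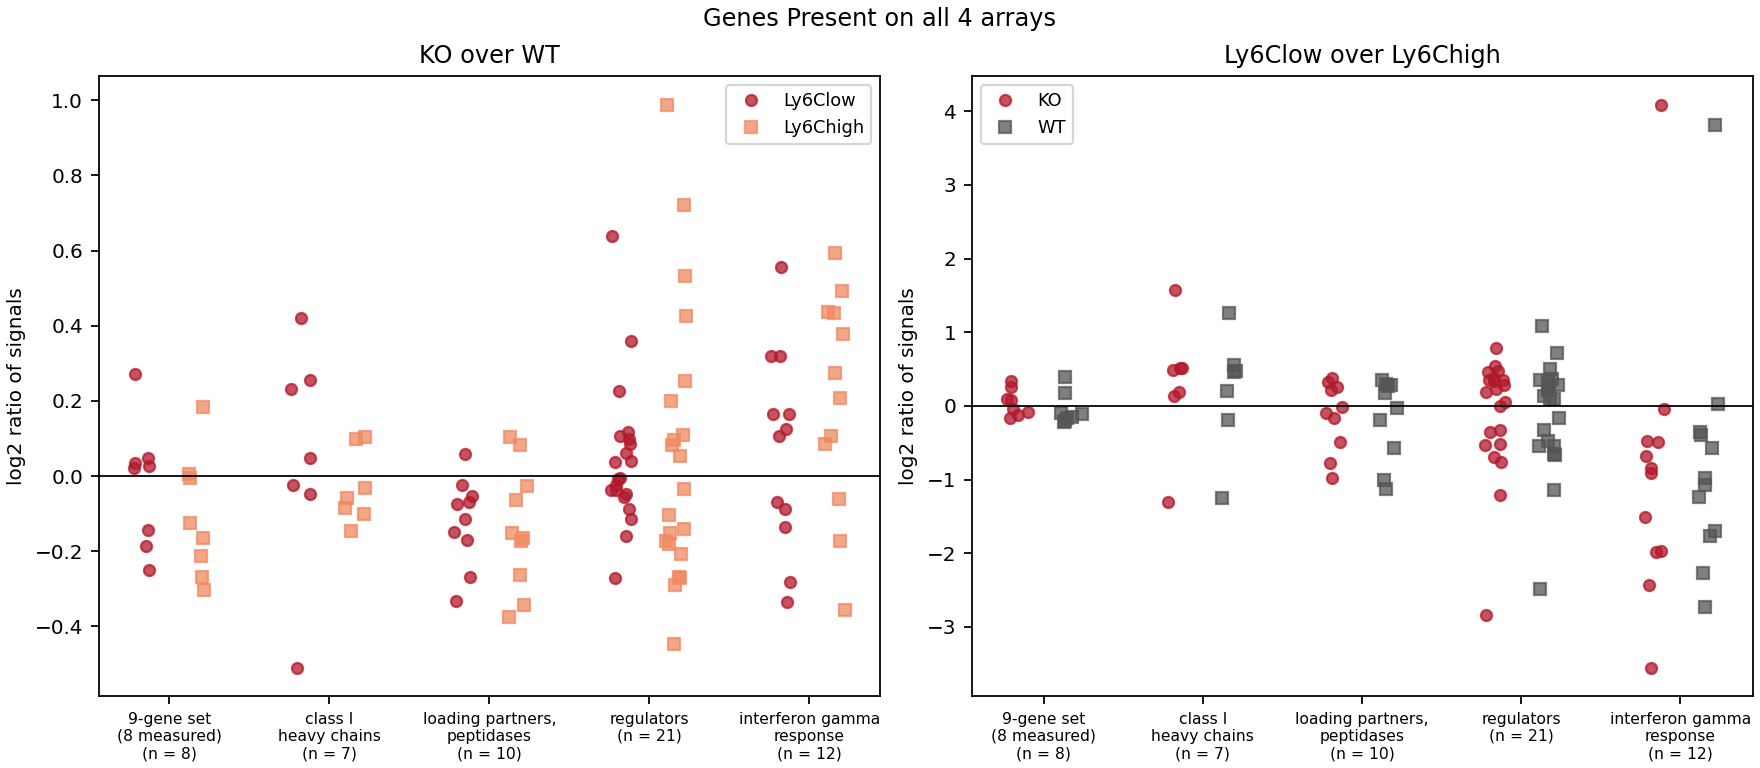
Log2 ratios of signals by gene class for genes Present on all 4 arrays, KO over WT on the left (circles Ly6Clow, squares Ly6Chigh) and Ly6Clow over Ly6Chigh on the right (circles KO, squares WT). The 8 measured genes of the set lie between -0.30 and 0.39 in every comparison, while the interferon gamma response genes reach -3.56 (Cxcl10) and 4.09 (Cd274). The Cxcl10 value rests on a KO Ly6Clow signal of 29.7, which lies near background.

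The effect of the genotype in Ly6Clow monocytes minus that in Ly6Chigh monocytes was 0.12 for Psmb8, 0.02 for Psmb9, 0.05 for Psmb10 and 0.03 for Psme1. It was -0.14 for Tap1, 0.28 for Tap2, 0.19 for Tapbp and 0.16 for B2m. With 1 array per group these differences have no test. The 5 genes whose profile over the 4 arrays came nearest to the median profile of the 8, by Euclidean distance of centred log2 signals among 2935 genes, were Hadhb (0.0197), Plbd1 (0.0235), Ubqln1 (0.0235), Ints5 (0.0243) and Chic2 (0.0260). The median distance was 0.377, and 181 genes lay within 0.104 of it, the size of the profile itself, which is nearly flat.

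The authors' own calls, made from each pair of arrays, were also few for these genes. In the authors' deposited table Psmb8 and Psmb10 were called decreased in KO Ly6Chigh monocytes, with folds of -1.15 and -1.23, where 7.33% of the 11098 genes Present on at least 1 array were called decreased. In Ly6Clow monocytes the authors' deposited table called Psmb10 decreased (-1.15) and Tap1 increased (1.23), where 3.54% were called decreased and 2.19% increased. Between the subsets the authors' deposited table called B2m decreased in Ly6Chigh relative to Ly6Clow cells, with folds of -1.32 in KO and -1.23 in WT cells, where 15.3% and 17.7% of genes were. The remaining calls of the 8 genes were no change. Psmb10 was thus the 1 gene of the set that the authors' deposited table called in the same direction in KO cells of both subsets, and the ratio of its signals was below 0 in both as well.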

How the data were processed

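RNA of sorted splenic monocytes was hybridised to 4 Affymetrix GeneChip mouse arrays, 1 per group. Per the file headers, the authors converted the signal intensities from the console's files with the BioRetis database and deposited detection p-values and calls with them. Each array's deposited signals have the same mean after trimming 2% at each end. Expression Console 1.2.1 is named in the series' design text and GCOS in the submitters' processing notes. Summary algorithm and build were not given in the sources used here. A signed fold, kept as a score per pair of arrays, stands in the authors' deposited table. The value table holds the same signals.

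A gene was represented by its brightest probe set with a single symbol. Of 45101 probe sets, 34958 had 1 symbol, 932 several and 9211 none. Log2 ratios of deposited intensities were taken without an offset. Measured genes were Present on at least 1 array of the pair, and calls needed a ratio of 2-fold (or, as a lower limit, a log2 ratio of 0.32), with the brighter array Present at a signal of 100 or more. With 1 array per group a pair has no test. The additive model (genotype plus subset) was fitted with limma 3.58.1 in R 4.3.3 on the 11098 genes Present on any array, with Benjamini-Hochberg adjustment and a threshold of 0.05, after it was tested on simulated data. Named pathway genes were the 3 with the largest ratios per list and comparison plus Nlrc5 and Irf1. Other genes were named where they were called, were the constitutive partners of the immune subunits, or show a class described in the text, and those were chosen after their values were seen. The genes and lists were chosen with earlier results of these data known. Listed genes without a single-symbol probe set were not analysed here.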

Additional observations from a re-analysis of the deposited data

Results flagged for a closer look

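For 3 of the 8 genes the data gave a KO to WT ratio of opposite sign in the subsets, and the difference was not tested, since each group had 1 array. The genotype effect in Ly6Clow minus that in Ly6Chigh monocytes was 0.28 for Tap2 on the log2 scale, 0.19 for Tapbp and 0.16 for B2m. The ratio of Tap2 in Ly6Chigh monocytes was -0.0040 and turned to 0.056 with centring on bright genes. Quantile normalization put B2m above 0 in both subsets, at 0.12 in Ly6Clow and 0.09 in Ly6Chigh monocytes. For Tap2 and Tapbp the ratio of Ly6Clow to Ly6Chigh also had opposite signs in the genotypes, and its difference, KO minus WT, was 0.28 and 0.19. All these values are below the limit of 0.32. The second probe sets of Tapbp and B2m did not show opposite signs for KO over WT, with 0.43 in Ly6Clow and 0.19 in Ly6Chigh monocytes for Tapbp, and -0.04 and -0.20 for B2m.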

How the results depend on the processing

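The counts of the 8 genes past 2-fold were 0 in all 4 comparisons under every alternative run. At a log2 ratio of 0.32, 4 alternatives moved a count. Median centring of the arrays added Psmb10 (-0.34) for KO over WT in Ly6Chigh monocytes, giving 1 in place of 0. Between the subsets in KO cells, quantile normalization and centring on bright genes (the second chosen after seeing the data) each gave 0 in place of 1, with B2m at 0.04 and 0.30. Between the subsets in WT cells, the mean over all probe sets gave 0 in place of 1, since Tap1 turned to -0.090 when averaged with 3 probe sets near background. In the additive limma model between subsets, the intensity trend called 2 of the 8 genes and the offset of 32 called 1, in place of 0. The medians of the 8 genes ranged from -0.05 to 0.07 in Ly6Clow and from -0.18 to -0.05 in Ly6Chigh monocytes for KO over WT. For Ly6Clow over Ly6Chigh the medians ranged from -0.09 to 0.07 in KO and from -0.15 to -0.12 in WT cells. The second and the last of these ranges kept 1 sign and the others did not.

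Counts over all genes moved more. Without a signal minimum the 2-fold counts were 322, 338, 1576 and 1654 (KO over WT in Ly6Clow and Ly6Chigh, then Ly6Clow over Ly6Chigh in KO and WT), against 20, 28, 914 and 911, and the counts at 0.32 were 2134, 2901, 5590 and 5862, against 740, 1392, 3707 and 3848. The offset gave 12 and 17 genes at 2-fold between genotypes, and the mean over all probe sets 34 in Ly6Clow monocytes. For genotype, limma called 287 genes with the trend, 106 with the offset and 0 otherwise. Between subsets it called 4590 with the trend, 4315 with the offset, 3352 of the 8590 genes Present on all arrays and 0 with the mean over all probe sets (3083 at an unadjusted p under 0.05), against 786. No array could be left out, because each group has 1 and the additive model would then have no residual degrees of freedom. No paired analysis was possible because each group has 1 array, so no block by replicate number could be fitted, and the additive limma model compared the genotypes within subsets and the subsets within genotypes. The number of arrays limits the precision, and the near-background probe sets of Tap1 carry no usable ratio.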
